A study of Mus musculus with 41 samples.

Results

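Peyer's patches taken from 3 positions of the mouse small intestine, labelled D, J and I, were compared in single-cell RNA sequencing libraries. The members are the 17006 cells of 11 libraries whose titles carry one of these letters, out of 58067 cells in 27 single-cell samples of the series. All mice were BALB/cJ females of 10 weeks, and the titles carry WT (wild type). They were either untreated controls or mice with a food allergy reaction provoked with ovalbumin, the egg white protein. The titles also carry 1 of 2 dates, called the first and second run date here. The letters are not spelled out in the labels, and they are those with which duodenum, jejunum and ileum begin. Libraries are named by position, sample type and run date, so that D control 1 is the D library of control mice with the first date. Position D had 3 libraries (5195 cells), position J had 4 (5374 cells) and position I had 4 (6437 cells). The titles of 12 libraries carry a letter, and the D food allergy library of the first date was not analysed here. Values below are always given in the same order: for D, control 1, control 2 and food allergy 2, and for J and for I, control 1, control 2, food allergy 1 and food allergy 2. The labels do not say whether libraries came from separate mice or from pools, or whether the D, J and I libraries of a date and sample type came from the same mice, so a p-value here measures how far these libraries vary, and that variation can be technical.

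Peyer's patches are lymphoid follicles in the wall of the small intestine that take up antigen from the gut lumen through a specialised epithelium. They hold germinal centres, in which B cells divide, mutate their antibody genes with the help of follicular T cells and switch to other antibody classes, IgA above all. Around the follicles lie T cells that enter from the blood through CCR7 and integrin α4β7, and innate lymphocytes such as ILC3, which make the cytokine IL-22.

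Each library held 379 to 3274 cells and 1115608 to 12045153 unique molecular identifiers (UMIs, which count captured transcripts), with a median of 2682 to 3440 UMIs per cell. Clustering gave 15 named cell classes, each called "like" its type from its markers, the largest being CD4 T-like cells (5078), germinal centre B-like cells (2810), naive B-like cells (2085) and CD8 T-like cells (1968). Another 2608 cells stayed unnamed. Both food allergy libraries of the first date stood apart. In J food allergy 1, which held 379 cells, 0.528% of cells were germinal centre B-like, and in I food allergy 1 0.933%, against 7.73% to 26.4% in the other 9 libraries. The summed level of 10 MHC class II genes, which B cells express strongly, was 2543 and 5443 counts per 1000000 UMIs (CPM) in these libraries, against 12360 to 20820 CPM in the others. Results on whole libraries are therefore given with all 11 libraries and with the other 9. Within a run date, 395 cells (2.32%) shared their barcode with a cell of another library. On the second date these were 275 cells (4.27%), and the largest cell of such a barcode had a median of 19140 UMIs and its other cells 671. Without these cells, the germinal centre B-like class of I control 2 fell from 62 to 14 cells, or from 8.38% to 2.07% of the library.

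Genes of the absorptive epithelium whose use changes along the gut were the first check of the position letters. Fabp6, the ileal bile acid binding protein (mm10 chromosome 11, 43596049 to 43601540, minus strand), had 818 UMIs in I control 1 and 760 in I food allergy 1. It had 2 UMIs in D control 1, 1 in J control 1 and 0 in the other 7 libraries, I control 2 and I food allergy 2 included. A single cell held 425 of the 818 UMIs and another held 747 of the 760. On the first date Fabp6 was thus found almost entirely at position I, and on the second date at no position.

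Apoa1, an apolipoprotein of proximal enterocytes, had 619 UMIs in D control 1, 710 in J control 1, 11 in I control 1 and 12 in I food allergy 1. It had 1 UMI in J food allergy 1, 5 in I food allergy 2 and 0 in the other libraries. Fabp1, the proximal fatty acid binding protein, stood at 340, 3.58 and 27.9 CPM in the D libraries, at 275, 0.131, 200 and 0.159 CPM in J, and at 3.08, 11.05, 1.88 and 130 CPM in I. Its groups overlapped: I food allergy 2 lay above 2 of the 3 D libraries. Defa24, a Paneth cell defensin, had 9919 UMIs in D control 1, of which 9700 were in 1 cell, and at most 20 elsewhere. That cell was named plasma cell-like and is not among the epithelial-like cells. Over all libraries the epithelial-like class held 75 cells, 36 of them in D control 1 and 21 in J control 1. Of 14 epithelial genes tested, 0 passed between any positions, with a median log2 fold change of -1.32 for I against D, where the median of all genes was 0.015. In the first-date controls Fabp6 was thus high at I alone, and Apoa1 was high at D and J and low at I. In the first-date food allergy pair Apoa1 was not lower at I than at J. Both genes were at or near 0 on the second date and gave no check there.

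**Figure D1:**
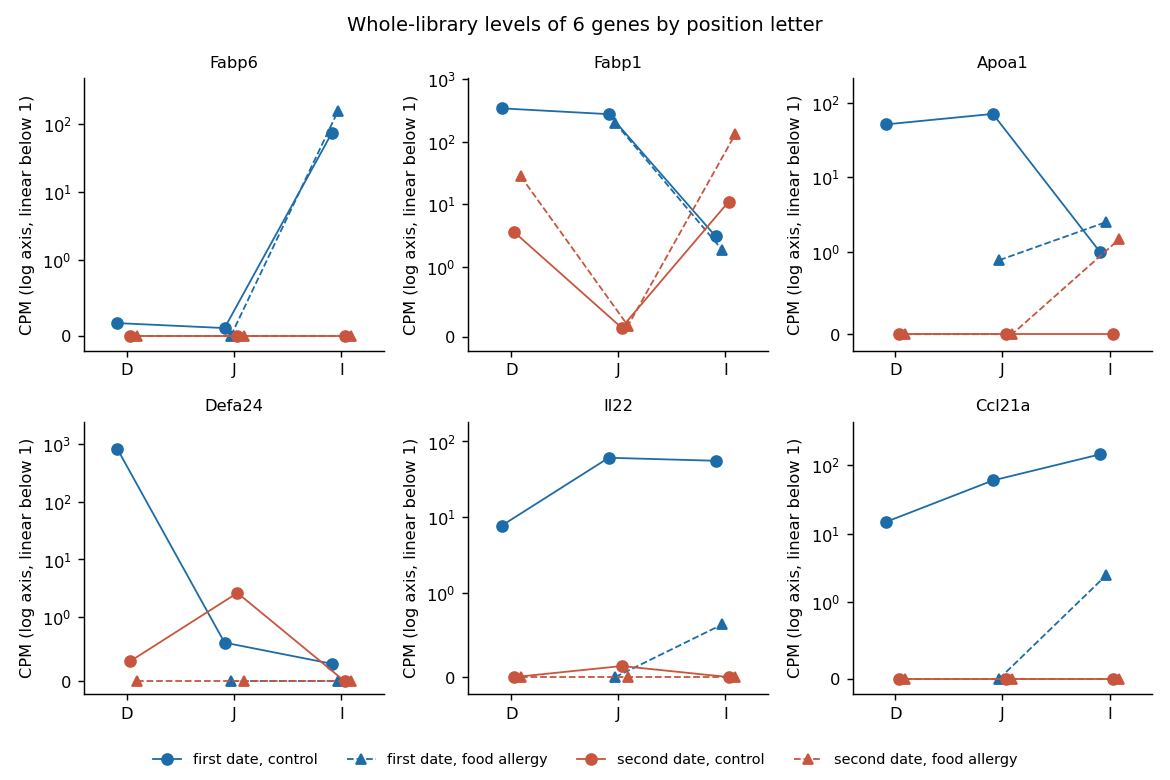
CPM of 6 genes (Fabp6, Fabp1, Apoa1, Defa24, Il22, Ccl21a) in each of the 11 libraries by position letter, on a log axis that is linear below 1; each point is 1 library, and lines join the libraries of 1 run date and sample type. Fabp6 reaches 74.0 and 158 CPM in the I libraries of the first date only, and Il22 and Ccl21a are high only in controls of the first date.

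Cell class shares leaned to more T cells and fewer germinal centre B cells at I. Of 13 classes 0 passed the exact permutation test over libraries (letters exchanged within date and sample type, 432 arrangements, Benjamini-Hochberg adjusted). It tests the 3 positions together, so its p-values below are not for any 1 pair of positions. The smallest p this design allows is 0.00463, or 0.0602 after adjustment if only 1 class reaches it. Germinal centre B-like cells made up 22.2%, 17.8% and 21.4% of the D libraries, 25.7%, 26.4%, 0.528% and 23.2% of J, and 7.73%, 8.38%, 0.933% and 16.1% of I. Within date and sample type, I lay below D in each of 3 pairs, with a mean difference of -9.73 ± 4.58 percentage points (SD, n = 3). It lay below J in 3 of 4, with -10.7 ± 8.97 points (SD, n = 4). Over the 3 positions the exact permutation p was 0.0741, adjusted 0.241. J lay above D in all 3 pairs, by 4.64 ± 3.51 points.

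Without the first-date food allergy libraries, germinal centre B-like cells were lower at I than at J in 3 of 3 pairs, with a mean difference of -14.4 ± 6.24 points. Those libraries had been set apart by this same share, and theirs was the pair in which I was not below J. The count of 3 of 3 pairs therefore follows from the choice and is no separate evidence. Over the 3 positions the exact permutation p was 0.0278, adjusted 0.167, as it was for CD4 T-like cells. That is the smallest p these libraries allow. After adjustment a few classes alone cannot pass, so the lack of a call decides nothing here. A count model of the cell numbers (edgeR, all 11 libraries) did call germinal centre B-like cells. Their share fell by 0.93 ± 0.28 (log2, SE) at I against D (edgeR adjusted p = 0.0206). Against J it fell by 1.18 ± 0.28 (edgeR adjusted p = 0.00742). That model reads the spread from all classes together. Across the 3 positions it also called follicular helper T-like and epithelial-like cells, and for I against J it called these and CD4 T-like and NK or ILC1-like cells (edgeR adjusted p = 0.0423 for each of the 4). The calls for these 5 classes therefore turn on the test used.

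CD4 T-like cells were 24.6%, 20.4% and 21.7% of the D libraries, 24.1%, 15.4%, 50.7% and 20.3% of J, and 40.6%, 34.5%, 54.9% and 24.7% of I. I exceeded D in 3 of 3 pairs, by 11.04 ± 7.06 points, and J in 4 of 4, by 11.1 ± 7.85 points. Over the 3 positions the exact permutation p was 0.0324, adjusted 0.211. Each I library was thus above the J library of its own date and sample type, while the positions overlapped across dates. NK or ILC1-like cells, the cytotoxic and interferon-making innate lymphocytes, followed the same order. They made up 1.80%, 1.01% and 0.769% of D, 1.47%, 0.825%, 1.85% and 0.855% of J and 2.84%, 1.62%, 2.74% and 0.982% of I. In 4 of 4 pairs they were higher at I than at J. Their exact permutation p over the 3 positions was 0.00926, adjusted 0.120. The CD8 T-like share was higher at I than at J in 4 of 4 pairs, by 2.98 ± 0.654 points. Its exact permutation p over the 3 positions was 0.0602, adjusted 0.241.

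Follicular helper T-like cells, which support germinal centre B cells, were 2.06%, 1.68% and 2.46% of the D libraries, 1.20%, 2.60%, 0.264% and 1.11% of J, and 0.305%, 0.541%, 0.187% and 1.35% of I. They were lower at I than at D in 3 of 3 pairs, with a mean difference of -1.34 ± 0.364 points and exact permutation p = 0.218 over the 3 positions. Naive B-like cells differed more by date than by position: they were 8.15%, 7.47% and 7.15% of the first-date controls at D, J and I, and 18.2%, 19.0% and 23.5% of the second-date controls.

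**Figure D2:**
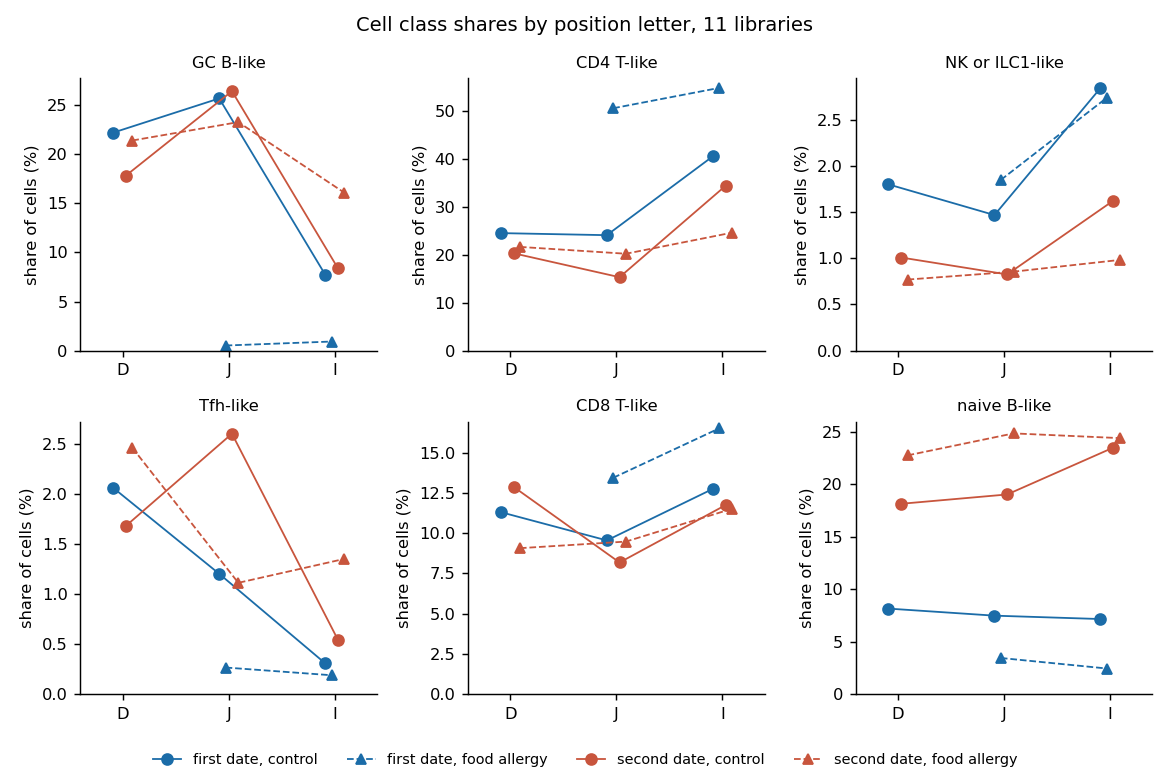
Percent of each library's cells in 6 cell classes at D, J and I; each line joins the libraries of 1 run date and sample type. Germinal centre B-like and follicular helper T-like shares are lower at I than at D in each of 3 pairs, and CD4 T-like shares are higher in each.

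Summing all UMIs of a library gives its expression as a tissue; in such sums fewer cells of a type and less RNA per cell cannot be told apart. With all 11 libraries and a block for each date and sample type, 1 of 11206 genes passed for I against D (0.00892%), 1 for J against D (0.00892%) and 0 for I against J (0%), by edgeR's quasi-likelihood test at an adjusted p of 0.05. Unadjusted, 1308, 302 and 2544 genes lay under 0.05, and DESeq2 called 0, 3 and 389. The lowest adjusted p for I against J was 0.0552. Among the genes of 26 lists, Il22 was the only one called by edgeR with 11 libraries. Across the 3 positions together 0 genes passed (0%), 1772 lay under an unadjusted 0.05, and DESeq2 called 106.

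The gene that passed was Il22 (chromosome 10, 118204942 to 118210047, plus strand), the ILC3 cytokine that acts on the epithelium. Il22 passed by edgeR and was not among the DESeq2 calls for I against D or J against D. It had 93 UMIs in D control 1 (7.72 CPM), 608 in J control 1 (60.9 CPM) and 614 in I control 1 (55.6 CPM). The other 8 libraries held at most 3 UMIs each. The fold change was 2.96 ± 0.26 (log2, SE; edgeR adjusted p = 0.0367) for I against D and 2.95 ± 0.26 (edgeR adjusted p = 0.0364) for J against D. It rests on 1 library at each position, and within those on few cells: 21, 38 and 58 cells carried an Il22 UMI, and a single cell held 374 of the UMIs of J control 1 and 269 of those of I control 1. ILC3-like cells held 96.5% of all Il22 UMIs.

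Ccl21a, a chemokine of lymphoid stroma and lymphatic vessels that draws CCR7-bearing cells, had the same pattern of libraries, with 179, 598 and 1588 UMIs in the first-date controls of D, J and I. It had 12 in I food allergy 1 and 0 elsewhere. A single stromal-like cell gave 175, 284 and 776 of these. The log2 fold change for I against D was 3.39 ± 0.26, with an edgeR adjusted p of 0.0666. Near-identical copies of this gene exist, so its counts are uncertain, as are those of Hspa1a, Iglc1, Trbc1 and Defa24.

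With the 9 libraries that remain without the first-date food allergy pair, a choice made after the data were seen, 1794 of 11068 genes passed for I against J (16.2%), 800 higher (7.23%) and 994 lower (8.98%) at I. For I against D 118 passed (1.07%), 55 higher (0.497%) and 63 lower (0.569%), and for J against D 1 (0.00904%). Leaving out 1 more library brought the I against J count to between 286 (without J control 2) and 2167 (without I food allergy 2), and to 307 without I control 1, 806 without I control 2, 882 without J food allergy 2 and 973 without J control 1. The I against D count lay at 0 without I control 1, 2 without D control 1 or J control 2, 5 without I control 2, 6 without D control 2 or J food allergy 2, 7 without J control 1, 654 without D food allergy 2 and 973 without I food allergy 2. Removing cells with shared barcodes gave 1976 and 232. The I against J count was thus at least 286 in each of these fits, and the I against D count reached 0.

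Fits of a single sample type or date gave the counts below. Each fit left few libraries from which to estimate the spread. The food allergy and first-date fits each held a single D library. The counts are therefore not comparable between these fits. They do not decide whether the position differences depend on sample type or date. With the 6 control libraries alone 1262 genes passed for I against D and 2045 for I against J by edgeR, and with the 5 food allergy libraries alone 3 and 9. With the first date alone the counts were 78 and 48, and with the second date alone 0 and 2.

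Cell division genes were lower at I in these libraries. The 9 had been chosen by germinal centre B-like share and MHC class II sum. Calls with 9 libraries, here and below, are therefore not independent of that choice. With 9 libraries, 25 of 25 cell cycle genes passed as lower at I than at J, where 8.98% of all genes did. Their median log2 fold change was -1.57, where that of all genes was 0.009. For I against D 5 of the 25 passed as lower (Tyms, Mki67, Cdk1, Top2a and Rrm2), with a list median of -1.16, where 0.569% of all genes did. With 11 libraries 0 of 25 passed, and the medians were -1.30 and -1.05. Mki67, a protein of dividing cells (chromosome 7, 135689784 to 135716361, minus strand), stood at 39.0, 60.7 and 62.1 CPM in the D libraries. It stood at 52.1, 72.9, 0.896 and 86.6 CPM in J and at 15.4, 13.9, 5.84 and 42.7 CPM in I. In each pair except that of food allergy 1, I lay below J. With 9 libraries its log2 fold change was -1.56 ± 0.21 against J (edgeR adjusted p = 0.00376) and -1.20 ± 0.22 against D (edgeR adjusted p = 0.0474). With 11 it was -1.39 ± 0.30 against J (edgeR adjusted p = 0.0552). The number of cell cycle genes that passed as lower at I against J was 11 without J control 2 and 12 without I control 1, with a list median of -1.49 in both fits. For I against D it was 0 without any 1 of D control 1, D control 2, I control 1, I control 2, J control 1, J control 2 or J food allergy 2, and 22 and 24 without D and I food allergy 2, with list medians from -0.81 to -1.51 over these fits.

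With 9 libraries 8.98% of all genes passed as lower and 7.23% as higher at I against J, and 0.569% as lower for I against D. Of 19 germinal centre genes, 12 passed as lower and 1 as higher at I against J (median -1.19). For I against D 1 passed as lower (median -0.87). With 11 libraries 0 passed, with medians of -1.02 and -0.78. Rgs13, a G protein regulator of germinal centre B cells, stood at 256, 242 and 226 CPM in D. It stood at 267, 312, 0.896 and 280.0 CPM in J and at 120.1, 59.4, 13.8 and 197 CPM in I. All 4 I libraries thus lay below all 3 of D. With 9 libraries the log2 fold change against J was -1.22 ± 0.29 (edgeR adjusted p = 0.02). S1pr2, a receptor that keeps B cells in the germinal centre, fell by 1.15 ± 0.19 (edgeR adjusted p = 0.00594). For Bcl6, the master transcription factor of the germinal centre, the difference was -0.51 ± 0.21 (edgeR adjusted p = 0.125). The 1 gene that rose was Gpr183, the oxysterol receptor that guides B cells outside the follicle centre, by 0.50 ± 0.10 (edgeR adjusted p = 0.0122). Without I control 1 the number that passed as lower at I against J was 1, with a list median of -0.90, and without J control 2 it was 2, with a median of -0.96; without J control 1 it was 7.

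**Figure D3:**
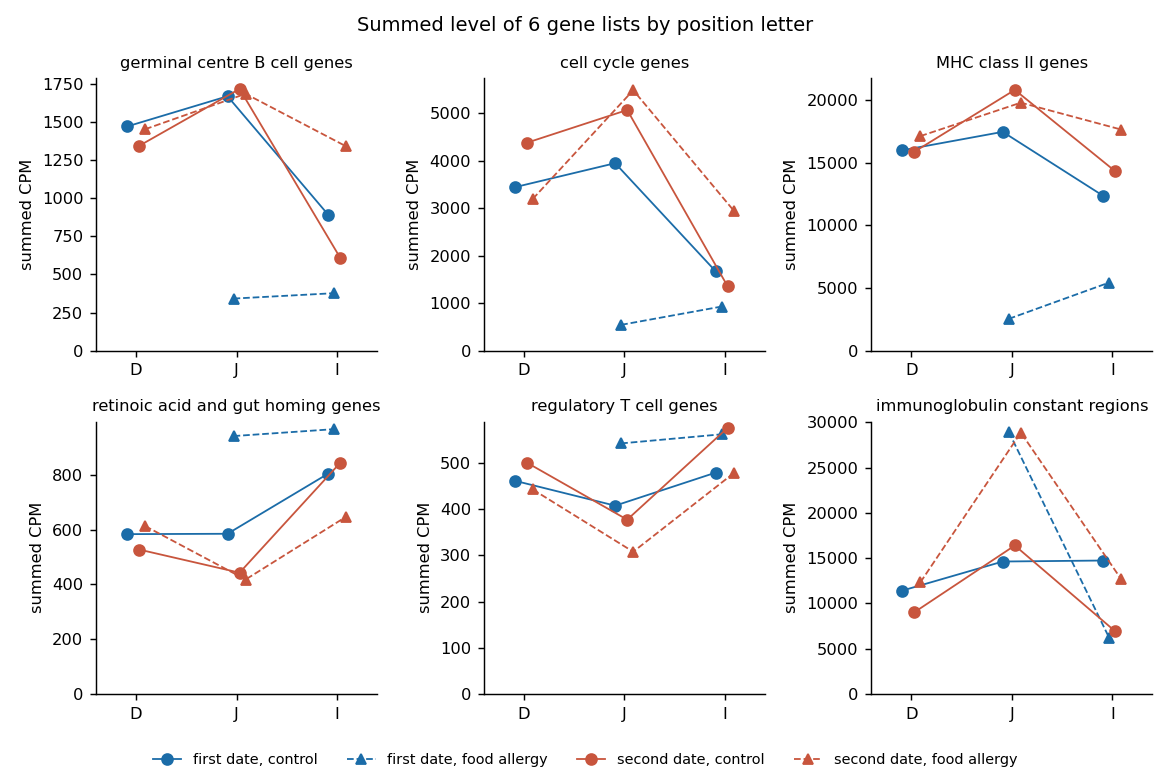
Summed CPM of 6 gene lists in each library by position; each line joins the libraries of 1 run date and sample type. The cell cycle sum lies at 3439, 4374 and 3193 CPM in D and at 1672, 1354, 929 and 2948 CPM in I, and the MHC class II sum drops in the first-date food allergy libraries.

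Both sums were lowest in I control 1, I control 2 and the first-date food allergy libraries, the 4 libraries with the lowest germinal centre B-like share. Inside the class itself (9 libraries, 2793 cells), 0 of 8752 genes passed for I against D (0%), J against D (0%) or I against J (0%) by edgeR, with 398, 193 and 395 genes under an unadjusted 0.05. Within it S1pr2 stood at 127, 153 and 226 CPM in D, at 134, 165 and 174 CPM in the 3 J libraries of the fit and at 117, 217 and 218 CPM in the 3 of I. The groups overlapped, and the log2 difference was 0.04 ± 0.14 for I against D and 0.12 ± 0.14 for I against J. Mki67 differed by -0.23 ± 0.13 and -0.29 ± 0.13. Of the germinal centre B-like cells of I control 2, 71.0% lay in a cluster with a median of 653 UMIs per cell, against 0% in D control 1 and I control 1, 29.5% in D food allergy 2 and 16.8% in I food allergy 2. With the shared-barcode cells removed, which leaves I control 2 with 14 cells of the class, 6 of 8703 genes passed for I against D by edgeR (Ighg2b, Iglc1, Tifa, Gpr171 and Sapcd1 higher, Slpi lower), 3 for J against D (Ighg2b and Hist1h2ap higher, Gzma lower) and 0 for I against J, with 599, 239 and 562 genes under an unadjusted 0.05. Across the 3 positions together 12 passed. The absence of calls in the class thus did not hold without these cells.

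Itgb7, Ccr7, S1pr1, Klf2 and Lef1, which were singled out from all genes after their values were seen, passed as higher at I against J with 9 libraries. Itgb7, the β7 chain of the gut homing integrin, stood at 112, 109 and 104 CPM in D, at 108, 84.6, 244 and 83.1 CPM in J, and at 194, 226, 285 and 136 CPM in I. Each I library lay above the J library of its date and sample type. With 9 libraries the log2 fold change was 1.03 ± 0.14 against J (edgeR adjusted p = 0.00376) and 0.78 ± 0.14 against D (edgeR adjusted p = 0.0474). Ccr7 rose by 0.97 ± 0.15 against J (edgeR adjusted p = 0.00511), as did S1pr1, the receptor with which lymphocytes leave the tissue, by 0.97 ± 0.16 (edgeR adjusted p = 0.00596). The transcription factors Klf2 and Lef1 of resting T cells rose by 0.86 ± 0.12 and 0.99 ± 0.13 (edgeR adjusted p = 0.0039 and 0.00376).

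With 9 libraries 7.23% of all genes passed as higher at I against J and 8.98% as lower. Of 12 retinoic acid and gut homing genes 5 passed as higher (S1pr1, Rara, Itgb7 and Rarg among them) and 0 as lower. Without I control 1 or without J control 2, 2 of them passed. Ccr9, the chemokine receptor of the small intestine, was not among them (0.12 ± 0.14, edgeR adjusted p = 0.621). Inside the CD4 T-like class, whose share was also higher at I in each pair, Itgb7 differed by 0.20 ± 0.08 and Ccr7 by 0.06 ± 0.08 between I and J, each with an edgeR adjusted p of 1. Of 14 regulatory T cell genes 6 passed as higher at I against J with 9 libraries, among them Foxp3, their defining transcription factor, by 0.84 ± 0.19 (edgeR adjusted p = 0.016). The number was 2 without J control 2, 3 without I control 1 and 4 without J control 1 or J food allergy 2. Inside the regulatory T-like class (853 cells) Foxp3 differed by 0.14 ± 0.17.

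With 9 libraries, where 8.98% of all genes passed as lower at I against J, 6 of 10 MHC class II genes did (median -0.38). The number was 0 without any 1 of I control 1, I control 2, J control 1 or J control 2, and 1 without J food allergy 2, with medians from -0.28 to -0.43 in these fits. With 11 libraries 0 passed, 3 of the 10 lay higher and the median was -0.04. With 9 libraries Cd74, the invariant chain, fell by 0.36 ± 0.09 (edgeR adjusted p = 0.0246). Of 11 immunoglobulin constant region genes 3 passed as lower at I against J with 9 libraries. Igkc, the κ light chain, stood at 7144, 5301 and 7335 CPM in D, at 9031, 9247, 19210 and 18460 CPM in J, and at 7999, 3695, 3755 and 5730 CPM in I. Every J library lay above every library of D and I. The log2 fold change of I against J was -1.04 ± 0.25 with 9 libraries (edgeR adjusted p = 0.0215) and -1.36 ± 0.29 with 11 (edgeR adjusted p = 0.0552).

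Among the isotypes, Ighg1 fell by 1.47 ± 0.43 (edgeR adjusted p = 0.0467). Ighg2b stood at 21.1, 6.39 and 7.07 CPM in D, at 420, 250, 13.5 and 8.74 CPM in J and at 179, 32.3, 2.29 and 2.94 CPM in I, and so was high in control libraries of J on both dates. For Igha, the heavy chain of IgA, the difference was -0.54 ± 0.26 (edgeR adjusted p = 0.192). It stood at 798, 114 and 1111 CPM in D, at 748, 219, 6810 and 3072 CPM in J and at 804, 172, 269 and 1237 CPM in I.

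The food allergy condition could change the position pattern. A model with separate terms for run date and sample type, in place of the blocks, was fitted to the 11 libraries. In it the interaction between position and sample type was tested. It passed for 1 of 11206 genes (0.00892%), Spink1, a trypsin inhibitor of epithelial and pancreatic cells (edgeR adjusted p = 0.0426); 153 genes lay under an unadjusted 0.05 and DESeq2 called 3. Spink1 had 303, 0 and 31 UMIs in the D libraries, 488, 1, 18 and 0 in J, and 30, 0, 15 and 0 in I. Only 1 food allergy library of D enters this test, and 29 of its 31 UMIs were in 1 cell. In 9 fits that left out 1 library 0 genes passed, and without I food allergy 1, 2 did.

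Within cell classes the CD8 T-like cells held most of the position differences. Of 5060 genes tested, 38 passed for I against D (0.751%), 37 of them lower and 1 higher, 2 for J against D (0.0395%) and 0 for I against J (0%), with 375, 276 and 212 genes under an unadjusted 0.05 by edgeR. DESeq2 called 3 for I against D. The named genes lower at I include chemokines, granzymes and receptors known from cytotoxic and epithelial lymphocytes.

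The lead gene was Ccl4, a chemokine released by activated killer cells (chromosome 11, 83662584 to 83664683, plus strand). It stood at 157, 52.0 and 125 CPM of the class sum in D, at 60.1, 1.99, 0 and 4.65 CPM in J and at 7.89, 2.79, 7.07 and 18.6 CPM in I. All 4 I libraries lay below all 3 D libraries. The log2 fold change was -3.63 ± 0.44 for I against D (edgeR adjusted p = 0.000511) and -2.19 ± 0.38 for J against D (edgeR adjusted p = 0.0372).

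Granzymes, the proteases that killer cells release, followed. Gzma stood at 4932, 1715 and 3688 CPM in D, at 1562, 1.99, 0 and 804 CPM in J and at 379, 0, 5.89 and 1714 CPM in I, and fell by 3.32 ± 0.75 for I against D (edgeR adjusted p = 0.0371). Gzmb fell by 2.89 (edgeR adjusted p = 0.00889). For Gzma I food allergy 2 lay beside D control 2, and the other 3 I libraries lay far below D.

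Receptors and their adaptors also fell. Tyrobp, the signalling adaptor of activating NK receptors, stood at 492, 241 and 525 CPM in D, at 371, 49.7, 0 and 126 CPM in J and at 76.7, 0, 17.7 and 130 CPM in I, without overlap between D and I (-2.64 ± 0.38, edgeR adjusted p = 0.00152). Fcer1g, a related adaptor, fell by 2.35 and Cd160, a receptor of epithelial T cells (chromosome 3, 96798763 to 96829351, minus strand), by 1.83 (edgeR adjusted p = 0.00306 and 0.00278). Lag3, an inhibitory receptor, fell by 2.58, Cd7 by 1.92, Ikzf2 (Helios) by 1.47 and the T cell receptor γ constant gene Tcrg-C4 by 1.73. Xcl1, a chemokine for dendritic cells, fell by 2.47 (edgeR adjusted p = 0.0151), Cited4, a transcription cofactor, by 2.42 and Abi3 by 1.27 (edgeR adjusted p = 0.00152 for both). For Itgae, the αE integrin of epithelial T cells, the difference was -1.22 with an edgeR adjusted p of 0.0588, and for Ccl5 -2.91 with 0.0589.

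The CD8 chains did not pass: Cd8a differed by -0.14 ± 0.11 (edgeR adjusted p = 0.874) and Cd8b1 by 0.20 ± 0.12 (edgeR adjusted p = 0.778). Nor did Itgb7 (0.16 ± 0.12) or Ccr9 (-0.43 ± 0.16).

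**Figure D4:**
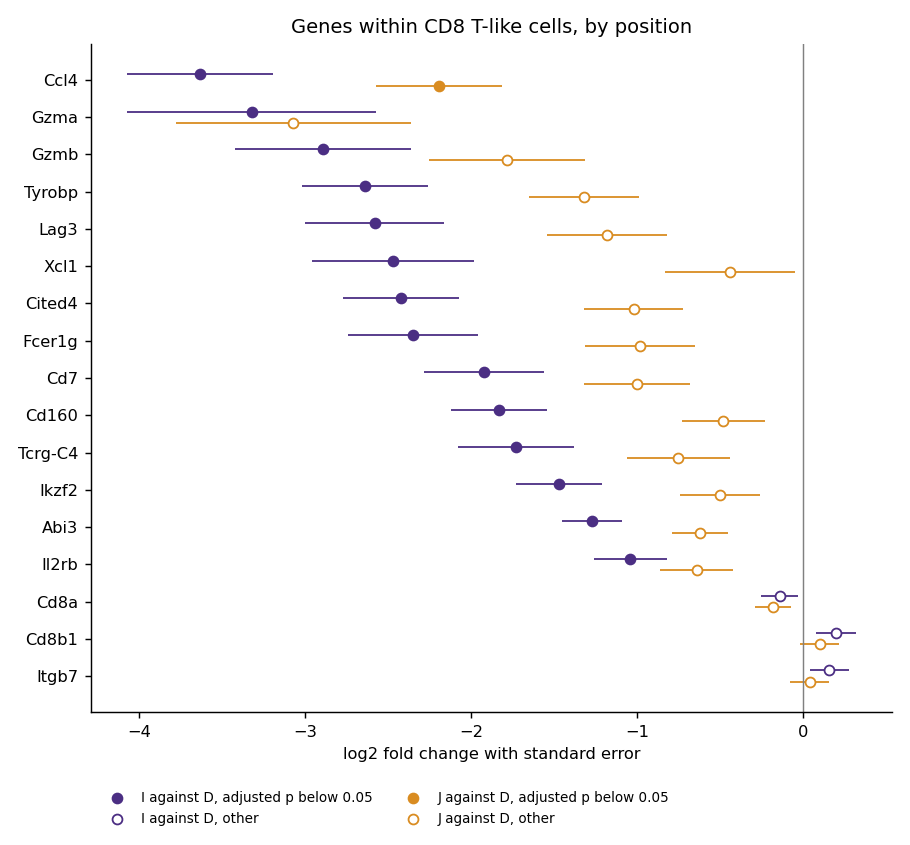
Log2 fold changes (± SE) of 17 genes inside the CD8 T-like class for I against D and for J against D; filled points passed an adjusted p of 0.05. Ccl4, Gzma, Gzmb, Tyrobp and Lag3 lie below -2 for I against D, while Cd8a and Cd8b1 lie near 0.

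The class held 3 clusters in unequal parts. Its largest cluster held 1770 of 1968 cells; the 2 others were led by Cd160 and by Gzma and Gzmb. Cells outside the largest cluster were 21.1%, 12.5% and 22.0% of the class in the D libraries, 14.4%, 6.98%, 0% and 10.8% in J, and 3.35%, 0%, 2.63% and 15.96% in I. The highest I library, food allergy 2, thus lay above the lowest D library, control 2. Inside the largest cluster alone 0 of 4755 genes passed for I against D by edgeR (190 under an unadjusted 0.05; no other tool was run there), and inside the others 1 of 808. The 38 calls thus compare the class with its clusters in different proportion, and those clusters were drawn from the same genes. Epcam, which marks epithelial cells, had 20.8, 5.78 and 22.2 CPM in the class in D and at most 6.97 CPM in J and I; it was too low to be tested.

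The CD8 T-like calls numbered 2 without D control 1 and 0 without I control 1, 51 with the first date alone (3 higher, 48 lower) and 12 with the second date alone (6 higher, 6 lower), so that the excess of lower genes was not seen on the second date. With the 9 libraries 68 of 4925 genes passed (1.38%), and 38 of the 38 were among them. Without a block 0 passed.

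An antibody light chain gene was the 1 gene higher at I in the CD8 T-like class, and the only one called in the CD4 T-like class for that contrast. Iglc1, the λ1 constant region (chromosome 16, 19061618 to 19062071, minus strand), stood in the CD4 T-like class at 6.93, 12.3 and 19.0 CPM in D, at 31.5, 61.3, 1.71 and 30.6 CPM in J and at 166, 15.2, 3.27 and 193 CPM in I. The log2 fold change for I against D was 3.53 ± 0.53 (edgeR adjusted p = 0.0118) there and 3.22 ± 0.56 (edgeR adjusted p = 0.00433) in the CD8 T-like class. T cells do not make antibody chains. In the whole libraries Iglc1 stood at 385, 377 and 427 CPM in D, at 445, 1287, 108 and 523 CPM in J and at 1588, 409, 66.3 and 2426 CPM in I, and a single cell held 6588 UMIs in I control 1, 5780 in J control 2 and 6498 in I food allergy 2. The 3 libraries with the highest value in both T cell classes were those 3. Of CD4 T-like cells 14.4% had an Iglc1 UMI and of CD8 T-like cells 14.2%. The part of free RNA in these calls was not tested.

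In the CD4 T-like class 1 of 6440 genes passed for I against D (0.0155%), 2 for J against D (0.0311%) and 0 for I against J (0%), with 272, 244 and 224 under an unadjusted 0.05 by edgeR. The J against D genes were Igkc (1.74 ± 0.27, edgeR adjusted p = 0.0157) and Jchain, the joining chain of IgA and IgM (2.00 ± 0.34, edgeR adjusted p = 0.0356). Igkc stood at 158, 145 and 267 CPM in D, at 627, 377, 363 and 834 CPM in J and at 649, 165, 157 and 246 CPM in I, and was the other gene called for J against D in CD8 T-like cells (1.60 ± 0.24, edgeR adjusted p = 0.0103). Igkc was also higher in the J libraries as a whole, as given above.

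Naive B-like cells gave 2 of 5569 genes for I against D (0.0359%), 1 for J against D (0.018%) and 1 for I against J (0.018%), with 287, 192 and 290 under an unadjusted 0.05 by edgeR. Hspa1a, an inducible heat shock chaperone, stood at 1579 CPM in D control 1, 737 and 1073 CPM in the J libraries of the first date and 571 and 917 CPM in those of I. It was at most 2.98 CPM in the second-date libraries. It fell by 1.43 ± 0.21 for I against D (edgeR adjusted p = 3.51e-05) and by 1.17 ± 0.21 for J against D (edgeR adjusted p = 0.00282), which compares 1 D library with the others, and in the whole libraries it was likewise 678 to 987 CPM on the first date and at most 4.98 on the second. 2810417H13Rik, a replication factor of dividing cells, fell by 1.84 for I against D (edgeR adjusted p = 0.049). The predicted gene Gm8797 was higher at I than at J by 1.06 (edgeR adjusted p = 0.024).

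Among the ILC3-like cells (8 libraries, 519 cells), 3 of 1418 genes passed for I against D (0.212%), 2 for J against D (0.141%) and 1 for I against J (0.0705%), with 70, 42 and 44 under an unadjusted 0.05 by edgeR. Il22 stood at 243 CPM of the class sum in D control 1, 2077 CPM in J control 1 and 1458 CPM in I control 1. It rose by 2.60 ± 0.28 for I against D (edgeR adjusted p = 1.71e-05) and by 3.10 ± 0.29 for J against D (edgeR adjusted p = 1.03e-06), again from the first-date controls. Of their 145, 106 and 161 ILC3-like cells, few carried most of the transcript, as given above.

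Crem, a transcription factor of cyclic AMP signalling, rose by 2.87 for J against D (edgeR adjusted p = 0.0284) and Junb, an immediate early gene, by 1.02 for I against D (edgeR adjusted p = 0.0438). S100g, a calcium binding protein of proximal enterocytes, fell by 4.27 for I against D and by 4.78 for I against J (edgeR adjusted p = 0.000453 and 5.21e-05). It stood at 152 and 331 CPM in the D controls, at 315, 175 and 81.8 CPM in J and at 9.88, 0 and 0 CPM in I, while I food allergy 1, which was not in the fit, had 15 UMIs in 1 cell. In the whole libraries S100g had 1603 UMIs in D control 1, 102 in J control 1 and 4 in I control 1. Epithelial-like cells held 1513 of the 1603, and ILC3-like cells held 89 of the 102 and 4 of the 4. ILC3-like cells also held 22 of 23 in D control 2 and 13 of 13 in J control 2. An S100g UMI was found in 40% of epithelial-like and 5.14% of ILC3-like cells. The range was 0.158% to 0.676% in CD4 T-like, CD8 T-like, naive B-like and germinal centre B-like cells. The part of free epithelial RNA in this call was not tested.

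In follicular helper T-like cells (8 libraries, 206 cells) 1 of 1196 genes passed for I against D (0.0836%), 0 for J against D (0%) and 2 for I against J (0.167%), with 92, 52 and 82 under an unadjusted 0.05 by edgeR. Sostdc1, a secreted antagonist of BMP and WNT signals (chromosome 12, 36314139 to 36318452, plus strand), stood at 277, 201 and 78.1 CPM in D, at 429, 121 and 134 CPM in J and at 1505 and 696 CPM in I control 1 and I food allergy 2. Both I libraries lay above all 6 others. It rose by 2.35 ± 0.32 against D (edgeR adjusted p = 0.000175) and by 2.18 ± 0.34 against J (edgeR adjusted p = 0.00144), from 10 and 11 cells of I. Trbc1, a T cell receptor β constant gene, fell by 1.33 for I against J (edgeR adjusted p = 0.00712). Pdcd1, the inhibitory receptor PD-1 that marks these cells, differed by -0.39 ± 0.24 for I against D.

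Regulatory T-like cells gave 0 of 2451 genes in each contrast by edgeR (0%), with 79, 89 and 80 under an unadjusted 0.05. Il10, their suppressive cytokine, stood at 76.7, 4.10 and 0 CPM in D, at 257, 129, 0 and 0 CPM in J and at 69.5, 46.4, 26.5 and 10.1 CPM in I. The control libraries of J were the highest on each date, and the difference of 2.07 ± 0.44 for J against D had an edgeR adjusted p of 0.28. NK or ILC1-like cells (6 libraries, 221 cells) gave 0 of 996 genes in each contrast by edgeR (0%), with 40, 34 and 24 under an unadjusted 0.05.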

How the data were processed

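Droplet 3' libraries were analysed from the deposited matrix of UMI counts per gene and cell (19221 genes); per the submitters' processing notes it was made with bcl2fastq and Cell Ranger on mm10, with no versions given (Bowtie2 and RSEM are also named). Deposited cells were all kept. Cells were clustered with scanpy 1.11.5 (2500 variable genes, 40 components, 20 neighbours, resolution 1.5: 34 clusters, 7 unnamed) and named from marker lists; the naming thresholds were set after seeing the data. A doublet caller marked 284 cells (1.67%), which were kept. Counts were summed per library, and per class where at least 10 cells were present, and tested with edgeR 4.0.16 (R 4.3.3; quasi-likelihood, TMM, Benjamini-Hochberg adjusted, threshold 0.05) with position and a block for each run date and sample type (4 blocks, from the titles). In 4 classes, blocks with fewer than 2 positions were dropped, a choice made after the data were seen. Shares of the 13 classes of at least 50 cells were tested by exact permutation within blocks (Python 3.11.15). DESeq2 1.42.0 was an alternative, as were other filters, date and type subsets and leaving out each library. Genes were named by rule: up to 10 called genes per direction in whole libraries (at least 10 CPM in the higher position), up to 4 per direction in a class, and genes of 26 lists; some genes of these lists are not reported here. The members and lists were chosen with earlier results of these data known. Gene coordinates are those of GENCODE M21. CPM are UMIs per 1000000 of the sum; depth bears on counting error only. On simulated counts with 200 changed genes, the whole-library test recovered 73% of 2-fold and 97% of 4-fold changes for I against D. Those counts had the same spread for every gene, no effect of date or sample type and no outlying library. The recovery is thus not a measure of what could be detected in the real libraries.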

Additional observations from a re-analysis of the deposited data

Results flagged for a closer look

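Within the 4 J and the 4 I libraries, 22 of 112 sets of values had 1 library far from the other 3. How many sets chance would give is not known. Some of the genes were picked from these same data, and some had few or no UMIs in most libraries. The sets also share their libraries and so are not independent. An excess over chance can therefore not be read from this count. Of these, 7 were values of J food allergy 1 among the J libraries: its germinal centre B-like share was 0.5277%, the lowest, and so were Rgs13 (0.8964 CPM), Top2a (6.275 CPM) and Cdk1 (0.8964 CPM), while Itgb7 (243.8 CPM), Lef1 (510 CPM) and Ifit1 (17.93 CPM) were the highest.

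First-date controls stood apart as the highest library for Il22 (60.92 CPM in J and 55.58 CPM in I), Ccl21a (59.92 CPM in J and 143.8 CPM in I), and, in I, Ighg2b (179.3 CPM) and Defa24 (0.2716 CPM). J control 1 was highest in J for Fabp6 (0.1002 CPM, 1 UMI), Apoa1 (71.14 CPM), Clec2h (38.57 CPM) and the macrophage-like share (0.6225%).

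I food allergy 2 was highest in I for Fabp1 (130.3 CPM), Lgals4 (41.49 CPM) and the epithelial-like share (0.2454%, 2 cells). J food allergy 2 was highest in J for Mcpt1 (376 CPM) and Mcpt2 (168 CPM). The position effect on Spink1 differed between controls and food allergy in the edgeR interaction test (adjusted p = 0.0426).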

How the results depend on the processing

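Counts of genes past an adjusted p of 0.05 in whole libraries (1 for I against D, 1 for J against D, 0 for I against J and 0 for any position) changed, in that order, to 0, 3, 389 and 106 with DESeq2 and to 79, 24, 819 and 559 with no low-count filter. They were 78, 39, 48 and 90 with the first run date only, 0, 2, 2 and 3 with the second, 1262, 9, 2045 and 1488 with controls only and 3, 9, 9 and 18 with food allergy only. Additive terms for date and sample type gave 1 gene for any position. With at least 1000 UMIs per cell 1 gene passed for I against J and 2 for any position, and without the epithelial, stromal and endothelial classes 385 and 1. Of the choices made after seeing the data, leaving out both first-date food allergy libraries gave 118 for I against D, 1794 for I against J and 962 for any position, and removing cells with shared barcodes 4, 331 and 2. Leaving out 1 library gave 0 to 113, 0 to 3, 0 to 1769 and 0 to 946, where the highest counts, except for J against D, came without J or I food allergy 1. The interaction of position and sample type gave 3 genes with DESeq2 and 0 to 2 without 1 library, and could not be estimated without D food allergy 2.

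Without the replicate block of run date and sample type, 0 genes passed for I against D and 0 for J against D in whole libraries. In the 4 classes tested without dropping blocks (CD4 T-like, CD8 T-like, regulatory T-like and naive B-like) 0, 0 and 0 passed. The numbers in the sample names are dates.

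Within classes 41, 5 and 1 calls (I against D, J against D, I against J) became 4, 2 and 0 with DESeq2, 109, 68 and 54 with no filter, 69, 72 and 94 with the first date, 119, 26 and 41 with controls, 3, 1 and 14 with food allergy, 71, 19 and 4 without the first-date food allergy libraries, and 14, 21 and 39 at clustering resolution 1.0. Additive terms gave 3 and 1 for the D contrasts, RLE factors 11 for J against D, the second date 15 for J against D and 108 for I against J, and a minimum of 30 cells 0 for I against J. The I against J calls ran opposite ways by date: in CD4 T-like cells 2 higher and 57 lower on the first date and 47 higher and 6 lower on the second, in CD8 T-like cells 1 and 34 against 14 and 1. Without 1 library the counts were 2 to 71, 0 to 19 and 1 to 18. For class shares edgeR on cell numbers called 3 of 13 and leaving out 1 library 0 to 0. Cd7 in CD8 T-like cells reversed to 0.05 at resolution 1.0 and to 0.05 in the largest cluster alone, Hspa1a in naive B-like cells to 1.69 (I against D) and 1.70 (J against D) with food allergy only, and Gm8797 to -0.41 with the first date only. Causes were not tested. Of the alternatives for single genes, 244 kept the direction only, 5 reversed and the others kept direction and call. Classes of few cells, and 3 libraries at D, limit what could be detected.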

Other observations

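Mucosal mast cell proteases appeared in the food allergy libraries of the second date at D and J and hardly at I. Mcpt1 had 2158 UMIs in D food allergy 2 and 2366 in J food allergy 2, but 1 in I food allergy 2. Elsewhere it had 141 in J control 1, 4 in I control 2 and 0 in the other libraries. Mcpt2 had 956 and 1057 UMIs in the same D and J libraries and 2 in I food allergy 2. A single cell held 1390 of the Mcpt1 UMIs of D food allergy 2 and 924 of those of J food allergy 2. The log2 difference of I against J was -8.77 ± 2.17 for Mcpt1 (edgeR adjusted p = 0.0707, 11 libraries).

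Interferon and sterol genes also differed between I and J with 9 libraries, where 7.23% of all genes passed as higher and 8.98% as lower. Of 17 interferon response genes 6 passed as higher at I (Zbp1, Gbp2, Igtp, Rtp4 and Ifit1 among them) and 0 as lower, with Ifit1, an antiviral RNA binding protein, higher by 1.18 ± 0.32 (edgeR adjusted p = 0.0343). Of 12 oxysterol and cholesterol genes 4 passed as lower (Fdps, Idi1, Hmgcs1 and Sqle, enzymes of cholesterol synthesis) and Gpr183 as higher. Of 24 immediate early genes 11 passed as higher. Ncr1, the NK cell receptor NKp46, was higher by 1.41 ± 0.25 (edgeR adjusted p = 0.00733). With all 11 libraries 0 of these genes passed by edgeR. Of 11 heat shock genes 0 passed in either fit.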
